A study of Drosophila melanogaster with 3 samples.

Results

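The Enhancer of split complex is a cluster of Notch target genes on chromosome arm 3R of Drosophila melanogaster. Its 10 genes described here, of 13945 protein-coding genes annotated on the 6 chromosome arms, were taken by symbol from Ensembl release 115. They are 7 genes for basic helix-loop-helix (bHLH) repressors, E(spl)mdelta-HLH, E(spl)mgamma-HLH, E(spl)mbeta-HLH, E(spl)m3-HLH, E(spl)m5-HLH, E(spl)m7-HLH and E(spl)m8-HLH, 2 Bearded-family genes, E(spl)malpha-BFM and E(spl)m4-BFM, and gro, which encodes the corepressor Groucho. They are written below as mδ, mγ, mβ, m3, m5, m7, m8, mα, m4 and gro. A region was assigned to a gene when its summit lay in the gene body or up to 2 kb on either side, and regions between the genes were described as well. All 10 symbols were found.

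Chromatin immunoprecipitation sequencing (ChIP-seq) mapped where the Sox100B protein, fused to GFP at its C terminus, was recovered with chromatin. The material was whole embryos of the Sox100B-GFP line, males and females together, collected 6 to 16 h into development and sonicated to 200 to 800 bp. There were 3 biological replicates of this 1 group, all carrying the same fusion and with no treatment named in the labels, and a control experiment listed in the labels was not analysed here. The free-text label calls each sample an input control, but its antibody label is Sox100B and its assay label is a ChIP-seq, and these were followed. Since whole embryos were used, the lists do not tell in which cells a region was recovered.

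The authors deposited 5 lists of regions on the dm6 genome, 30000 regions from each replicate, 30000 from the replicates pooled, and 5683 that passed the IDR (irreproducible discovery rate) step, which retains regions whose ranks are repeatable. Each region carries the peak caller's own signal, which is used here only to give its rank within a list, rank 1 being the strongest. A q-value under 0.05 was given to 8532, 10358 and 8146 regions of replicates 1, 2 and 3 and to 9948 pooled regions, and the lists hold background below these by design. The top list of a replicate means its 5683 strongest regions. The IDR regions are ranked by their pooled signal, to which each replicate contributed, so their presence in the replicates is a description and not an independent test.

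Notch signalling frees the intracellular part of the receptor, which joins the DNA-binding protein Suppressor of Hairless, Su(H), and switches on target genes. The bHLH proteins of the complex are among the best known of these targets, and they repress proneural genes such as those of the achaete-scute complex by recruiting Groucho, so that only some cells of a cluster become neural. The Bearded-family proteins inhibit Neuralized, the ubiquitin ligase that acts on the ligand Delta. Sox100B is a group E Sox factor, known from the somatic gonad of males, and Sox proteins bind short AT-rich sites through an HMG box.

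The sequences below show what lay under 4 of the IDR summits of the complex. They are the strongest region (upstream of m3), the second strongest (upstream of m7), the region beside E(spl)m2-BFM, and the region farther upstream of m3, the only one with a Su(H) word. Each is 201 bases of release 6 of the genome, plus strand, centred on the summit. Capitals mark a Sox core (ACAAAG or ACAATG, either strand) in the first and the second line and a Su(H) word in the third line. The m7 window, in the last line, held neither.
upstream of m3 (chr3R:26021304-26021504): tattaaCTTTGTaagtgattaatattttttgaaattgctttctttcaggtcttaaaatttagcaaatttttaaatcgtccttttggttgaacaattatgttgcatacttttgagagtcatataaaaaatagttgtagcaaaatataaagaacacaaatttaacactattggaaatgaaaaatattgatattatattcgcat
beside E(spl)m2-BFM (chr3R:26017878-26018078): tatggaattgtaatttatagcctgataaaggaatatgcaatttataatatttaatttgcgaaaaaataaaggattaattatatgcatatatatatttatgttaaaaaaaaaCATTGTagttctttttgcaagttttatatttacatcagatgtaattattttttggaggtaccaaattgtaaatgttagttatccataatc
farther upstream of m3 (chr3R:26020308-26020508): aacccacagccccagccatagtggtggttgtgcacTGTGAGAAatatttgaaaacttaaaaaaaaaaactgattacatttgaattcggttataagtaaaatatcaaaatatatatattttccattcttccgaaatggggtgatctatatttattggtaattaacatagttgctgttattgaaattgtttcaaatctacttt
upstream of m7 (chr3R:26036554-26036754): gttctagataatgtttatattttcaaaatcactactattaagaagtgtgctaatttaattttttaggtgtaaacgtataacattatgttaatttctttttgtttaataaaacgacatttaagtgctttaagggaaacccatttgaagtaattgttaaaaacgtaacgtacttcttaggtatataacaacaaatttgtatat

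The next 6 sequences show the other feature of the locus, pairs of Su(H) words facing each other upstream of members. A Su(H) word here is CGTGAGAA, CGTGGGAA, TGTGAGAA or TGTGGGAA on either strand, and a pair is a plus-strand word followed by a minus-strand word with 10 to 30 bases between them. Capitals mark the words, and each sequence is written in the direction of transcription of the gene.
mγ (chr3R:25999552-25999594, plus strand): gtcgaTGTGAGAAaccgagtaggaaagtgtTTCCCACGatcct
m3 (chr3R:26020746-26020788, plus strand): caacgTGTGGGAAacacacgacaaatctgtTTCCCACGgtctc
m4 (chr3R:26024853-26024895, minus strand): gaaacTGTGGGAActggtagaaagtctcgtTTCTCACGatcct
m5 (chr3R:26030592-26030639, minus strand): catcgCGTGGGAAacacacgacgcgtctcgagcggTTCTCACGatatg
m7 (chr3R:26036364-26036406, plus strand): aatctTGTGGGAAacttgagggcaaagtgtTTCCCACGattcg
m8 (chr3R:26040011-26040053, plus strand): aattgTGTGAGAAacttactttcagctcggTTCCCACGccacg

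Sox100B-GFP regions were dense in the complex. From the start of mδ at 25997621 to the end of gro at 26049911 on 3R the complex spans 52.3 kb, and with 2 kb on both sides it held 11 IDR summits. This was 1.95 summits per 10 kb, against 0.424 over the 6 arms, a ratio of 4.60. When the arms were divided into 2375 consecutive stretches of the same length, 45 of them, or 1.89%, held 11 or more summits, while the median stretch held 1 and the fullest 19. The top lists of replicates 1, 2 and 3 placed 14, 13 and 14 summits here, a mean of 13.7 ± 0.577 (SD, n = 3). Only 1, 1 and 0 of these belonged to regions that overlapped no IDR region, so the larger counts include repeated calls at the same 11 regions. The complete lists of 30000 regions, which hold background, placed 36, 27 and 25 summits here, and the pooled list 26. Of these, 17, 15, 15 and 15 had a q-value under 0.05. The ratio of 4.60 is that of the IDR list. No density over the arms was computed for the complete lists or for their regions with a q-value under 0.05, so their counts have no such ratio here.

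**Figure D1:**
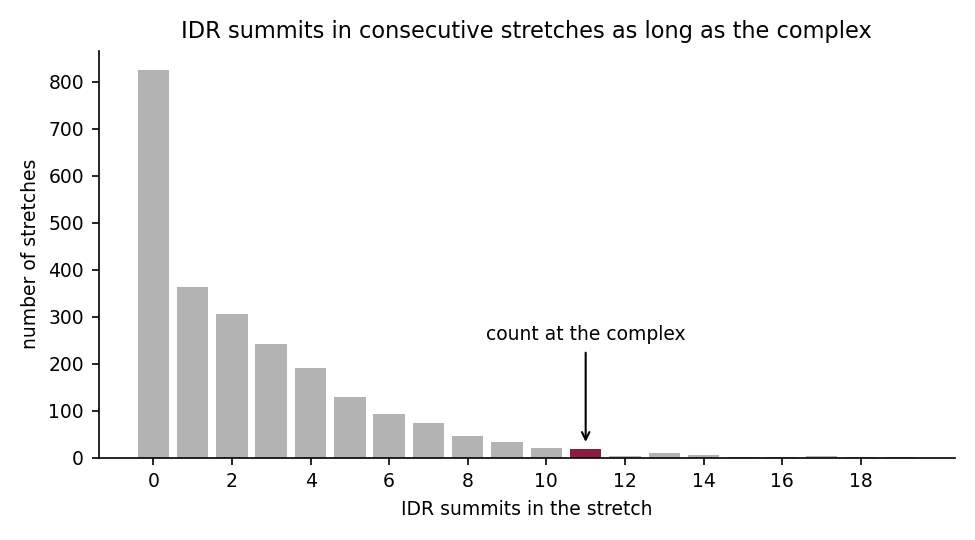
Number of IDR summits (horizontal axis) in each of the 2375 consecutive stretches of the 6 arms that are as long as the complex with its flanks, with the number of stretches on the vertical axis. The bar for 11 summits, the count at the complex, is coloured, and it lies far out in the tail of a distribution whose median is 1.

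Of the 10 members, an IDR summit lay in or within 2 kb of 6, namely mδ, mα, m3, m7, m8 and gro. By the same rule 29.9% of all 13945 protein-coding genes had one, and 19.1% of the 2852 genes whose length lay in the range of the 9 short members (676 to 1305 bp), of which 5 had one. The same 6 members had a summit from the top list of replicate 1, of replicate 2 and of replicate 3, against 31.7%, 32.6% and 33.6% of all genes. In the pooled list of 30000 regions, 9 of the 10 members had a summit, all but m5, against 53.1% of all genes. Neighbouring members are not independent, because m8 and gro share both of their IDR regions. The remaining 4 members, mγ, mβ, m4 and m5, had no IDR summit. With the gene body alone, without flanks, gro was the only member with a summit, while 12.5% of all genes had one.

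**Figure D2:**
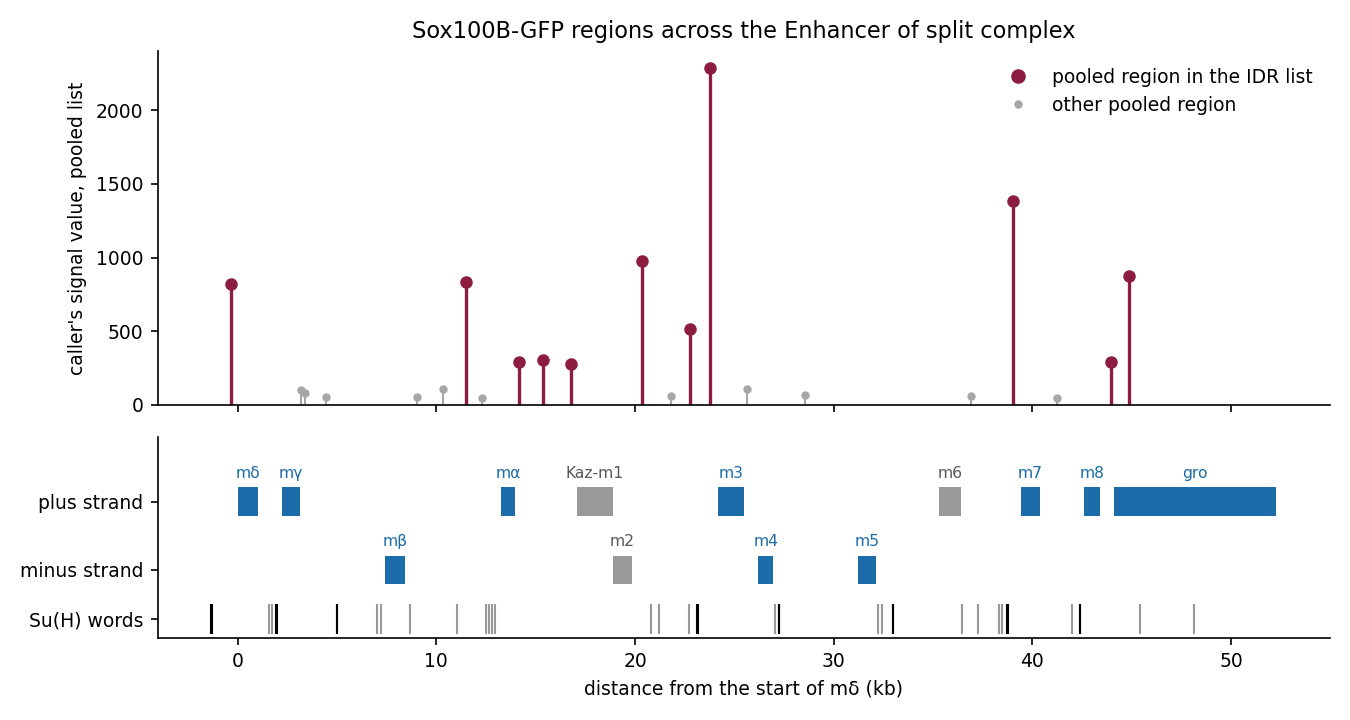
Upper panel, the signal of pooled regions (vertical axis, the caller's own value) at the summit's distance in kb from the start of mδ. Dark red marks the 11 regions of the IDR list, and grey the 11 pooled regions that overlap none of them. Pooled regions that overlap an IDR region but are not in the IDR list are not drawn. Lower panel, the members in blue and E(spl)m2-BFM, E(spl)m6-BFM and Kaz-m1 in grey on their strands, with Su(H) words as ticks, black where they form a facing pair. The tallest stem stands upstream of m3 and the next upstream of m7, and no dark red stem stands between m3 and m7 or around mγ and mβ.

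The strongest region of the complex lay upstream of m3, a bHLH repressor gene on the plus strand. It spanned chr3R:26021110-26021669, with its summit in intergenic sequence 419 bp upstream of the m3 start site, and it ranked 56 among all 5683 IDR regions with a signal of 2289. Its signal was 568 in replicate 1, 1077 in replicate 2 and 653 in replicate 3, which gave ranks of 69, 48 and 55 and a mean rank of 57.3 ± 10.7 (SD, n = 3). The 3 replicate summits fell within 9 bp of each other, at 26021390, 26021388 and 26021381, with an SD of 4.73 bp, while the median SD over all IDR regions was 30.3 bp. The start of the non-coding gene lncRNA:CR43644, which runs away from m3, is nearer still, with the summit 328 bp upstream of it.

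A weaker region lay farther upstream of m3, at chr3R:26020332-26020524 with its summit 1415 bp upstream of the start site. It ranked 995, 1954 and 2106 in replicates 1, 2 and 3 and 1381 in the IDR list. In every replicate it was weaker than the region next to the m3 start, and the ranks of the 2 regions do not overlap. This is the region whose window holds a Su(H) word, 62 bp from the summit.

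Upstream of m7, another bHLH repressor gene on the plus strand, stood the second strongest region, at chr3R:26036427-26036900. Its summit lay 384 bp upstream of the start site, and it ranked 230 in the IDR list with a signal of 1384. It ranked 260, 201 and 278 in the replicates, a mean of 246 ± 40.3 (SD, n = 3), with every replicate below the m3 region and above all others of the complex. The facing pair of Su(H) words upstream of m7 had its centre 269 bp from the summit, within the same intergenic stretch between E(spl)m6-BFM and m7.

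The region at mδ, the bHLH gene at the left end, lay between the starts of 2 genes that run apart. It spanned chr3R:25997010-25997454, and its summit was 336 bp upstream of mδ and 289 bp upstream of CG43116, so the nearest start was not that of the member. It ranked 633, 601 and 713 in replicates 1, 2 and 3, a mean of 649 ± 57.7 (SD, n = 3), and 637 in the IDR list.

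The window of mδ also held a region that the pooled and IDR lists lack. In an intron of CG43116, replicate 1 had a summit at 25996578 with rank 1099 and replicate 2 one at 25996560 with rank 846, both inside the top lists. Neither overlapped a pooled region, and replicate 3 had none there. Across the arms, 4643 regions of the top list of replicate 1 overlapped the top list of replicate 2, and 153 of them, or 3.30%, had no pooled region, so the case is not peculiar to the complex. Of these 153, 48 were also missing from replicate 3.

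For m8, the bHLH gene next to gro, the 2 IDR summits lay downstream of the gene, 579 and 1490 bp past its end, and none lay upstream. Both belong by distance to gro. The nearer one, at chr3R:26041355-26041818, lay 149 bp upstream of the 5′ end of gro and ranked 4689, 3327 and 2229 in replicates 1, 2 and 3, a mean of 3415 ± 1232 (SD, n = 3). The stronger one, at chr3R:26042348-26042678, lay in an intron of gro, 762 bp inside the gene and 143 bp upstream of an internal start among the 4 that the annotation gives for gro. It ranked 756, 529 and 625, a mean of 637 ± 114 (SD, n = 3), and 568 in the IDR list. It was the only IDR summit of the complex inside a gene, as the other 10 were intergenic.

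The Bearded-family gene mα had 3 IDR summits in its window. The strongest, at chr3R:26008924-26009278, lay 1773 bp upstream of mα and 3097 bp from the nearest end of mβ, ranking 608, 780 and 551 in the replicates (mean 646 ± 119, SD, n = 3). The next 2 lay downstream. One was centred 195 bp past the end of mα and ranked 4739, 2778 and 4124 in replicates 1, 2 and 3. The other ranked 3144, 3624 and 2604, and its summit lay 1436 bp past the end of mα and 1717 bp upstream of Kaz-m1. No IDR summit lay within 1 kb upstream of mα, in contrast to mδ, m3, m7 and gro.

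**Figure D3:**
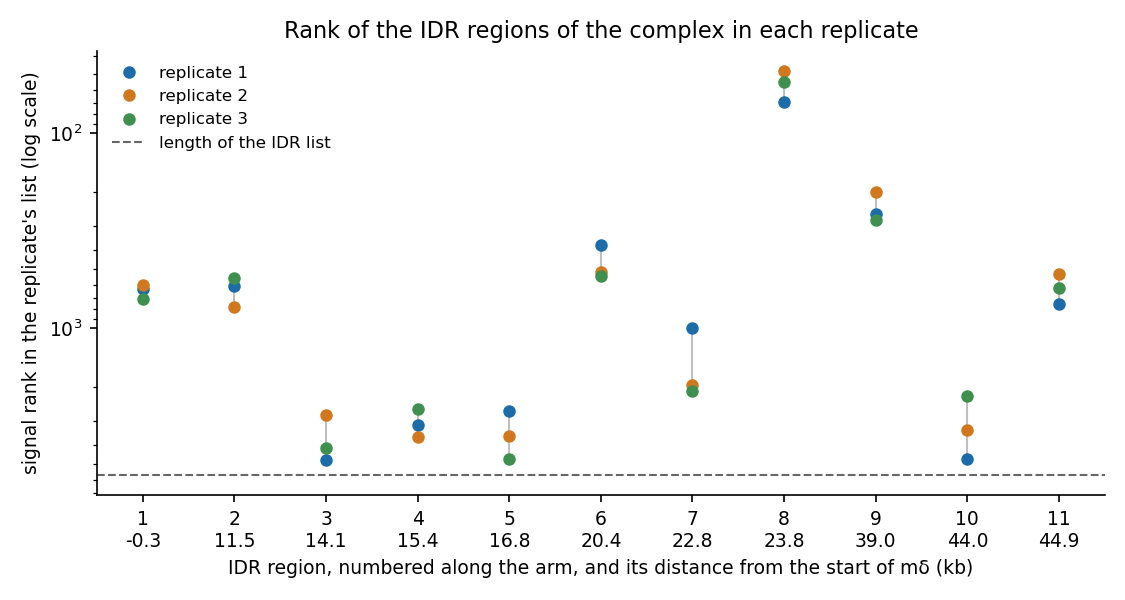
Signal rank (vertical axis, log scale, strongest at the top) of the 11 IDR regions of the complex in replicate 1, 2 and 3, numbered along the arm with the distance of the summit from the start of mδ in kb. Every point lies above the dashed line at rank 5683, region 8 upstream of m3 leads with ranks of 48 to 69, and regions 3, 4, 5 and 10 sit lowest with ranks of 2229 to 4739.

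Ordered by rank over the replicates, the m3 region (48 to 69) stood apart from the m7 region (201 to 278), and that one from the region beside E(spl)m2-BFM (375 to 542). The ranges of the regions in the gro intron (529 to 756), upstream of mα (551 to 780) and upstream of mδ (601 to 713) overlap one another, so their order is not resolved by 3 replicates, and the range beside E(spl)m2-BFM overlaps that of the gro intron. The distal m3 region (995 to 2106) followed. The 4 weakest regions, all with ranks from 2229 to 4739, overlap among themselves. All 11 regions were overlapped by the top lists of all 3 replicates, as were 71.0% of all IDR regions. The median IDR rank of the 11 was 637, against 2842 over the list, and 7 of the 11 were among its 2841 strongest regions.

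The 4 members without an IDR summit were mγ, mβ and m5, which encode bHLH repressors, and m4, of the Bearded family. The strongest pooled region of mγ, 933 bp downstream of its start and just past its end, ranked 10190, and its strongest regions ranked 10931, 12670 and 12244 in replicates 1, 2 and 3. For mβ the strongest pooled region lay 1947 bp upstream and ranked 9416, but the replicates ranged from 6419 in replicate 2 to 18350 in replicate 1 and 19397 in replicate 3, where the strongest region was another one, 2231 bp downstream of the start. The strongest pooled region of m4 lay 1296 bp downstream of its start and ranked 9726, with ranks of 9430, 13083 and 21069 in the replicates. No pooled region lay in the window of m5, and 1 replicate region did, in replicate 1, at rank 19280. The pooled regions of mβ and m4 had a −log10 q-value of 1.39 and 1.34, a q-value under 0.05, that of mγ had 1.25, which does not reach it, and the mβ region of replicate 2 had 2.42. All of these ranks lie outside the top lists, though the mβ region of replicate 2 was not far below the cut of 5683. The IDR list that set these 4 genes apart came from the same replicates. Their absence from every top list is therefore a description and not independent support. When the flank was widened to 5 kb, m5 was the only member without an IDR summit, a width that reaches past neighbouring genes and that gives a summit to 42.0% of all genes.

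**Figure D4:**
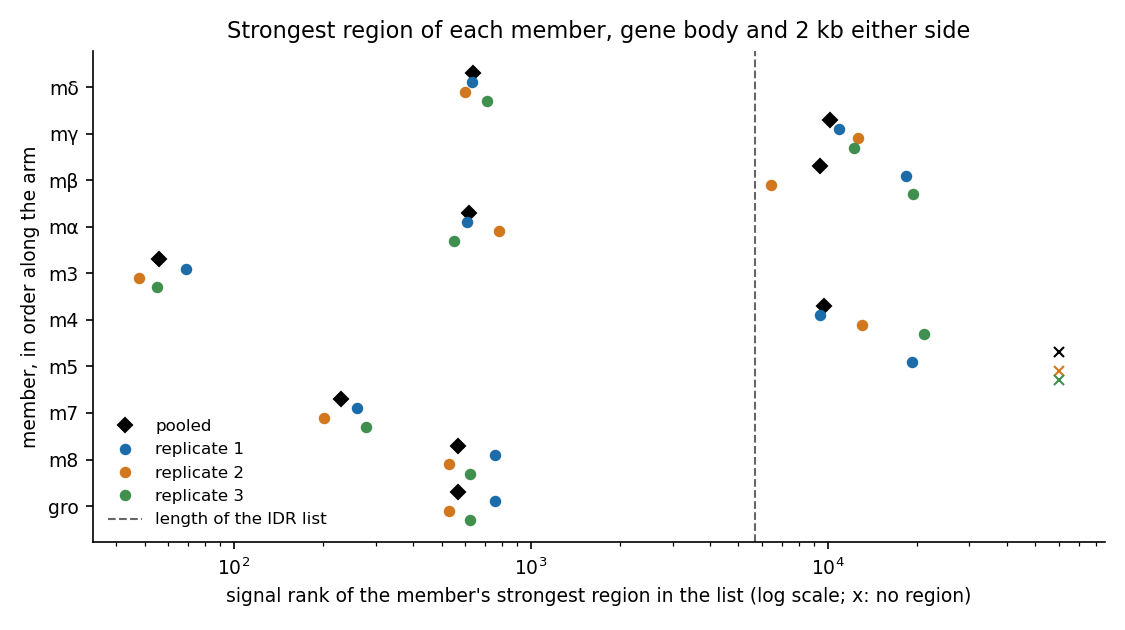
Signal rank (horizontal axis, log scale) of the strongest region within each member and 2 kb either side, in the pooled list (black diamonds) and in replicates 1, 2 and 3 (coloured points), with members in order along the arm and a cross where the list has no region. The points of mδ, mα, m3, m7, m8 and gro lie left of the dashed line at rank 5683 and those of mγ, mβ, m4 and m5 lie right of it. The points of m8 and gro are the same region.

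The genes m4 and m5, without an IDR summit, lie together in the longest interval without an IDR summit. It ran for 15250 bp from the m3 region to the m7 region, over m3, m4, m5 and E(spl)m6-BFM. Intervals this long were not rare in the genome, as 67.3% of all distances between neighbouring IDR summits were shorter. Within the complex the median distance was 2536.5 bp, against 6357 bp over all IDR regions.

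Some regions between the members lay in no member's window. The region beside E(spl)m2-BFM, a further Bearded-family gene, spanned chr3R:26017752-26018206 with its summit 508 bp upstream of that gene, and ranked 375, 513 and 542 in the replicates and 466 in the IDR list. The other, at chr3R:26014148-26014611, lay 341 bp upstream of Kaz-m1, the gene known as E(spl)m1, and ranked 2656, 3559 and 4705. Its summits in replicates 1 and 3 lay close together, at 26014519 and 26014515, and that of replicate 2 at 26014380, a range of 139 bp, so its place was less well set than that of the others. E(spl)m6-BFM, between m5 and m7, had no IDR summit and 1 pooled one. The non-coding genes lncRNA:CR45037, lncRNA:CR45038, lncRNA:CR45039, lncRNA:CR45040 and lncRNA:CR43643 also lie between members, and Exo84 overlaps the end of gro.

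Most summits of the complex lay near a start site. Of the 11, 8 lay within 1 kb of a start site of a protein-coding gene (72.7%), compared with 43.6% of all IDR regions, and the median distance was 419 bp against 1438 bp. Genes are closely packed in the complex, so many of its positions lie near a start site. That share was not computed, and the part of gene density in these distances was not tested. Summits 250 to 600 bp upstream of the nearest start made up 5 of the 11 (45.5%), those at mδ, Kaz-m1, E(spl)m2-BFM, m3 and m7, against 12.1% of all IDR regions. They were not the 5 strongest, since the Kaz-m1 region ranked 3201 in the IDR list, while the stronger regions in the gro intron and upstream of mα lay 143 and 1773 bp upstream of the nearest start. This interval was chosen after the distances were seen. Within 200 bp of a start lay 2 of the 11 (18.2%), both at gro, against 17.9% of all IDR regions.

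**Figure D5:**
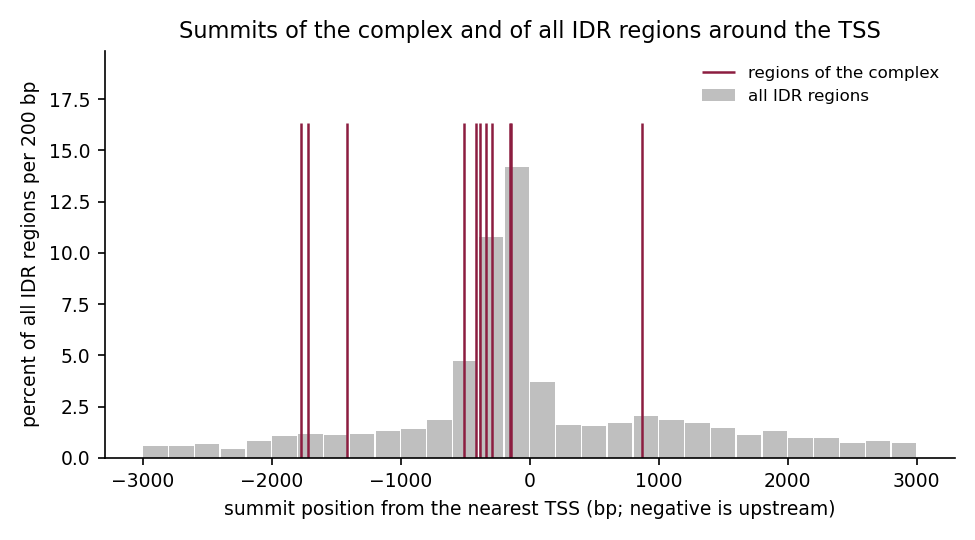
Position of the summit relative to the nearest transcription start site (TSS) of a protein-coding gene in bp, negative upstream, with grey bars for the percent of all IDR regions in each 200 bp and red lines for the 11 regions of the complex. A group of 5 lines stands 250 to 600 bp upstream, left of the tallest grey bar.

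The summits of the complex lay in AT-rich sequence. The GC content of the 201-bp windows ran from 20.9% (beside E(spl)m2-BFM) to 41.3% (gro intron) with a median of 26.9%, while the median over all IDR windows was 32.3% and the complex as a whole had 44.5%. The windows upstream of m3 and m7 had 22.9% and 23.9%, and the long runs of a and t are visible in the sequences above. A Sox core was found in 5 of the 11 windows, those at mδ, upstream of mα, at Kaz-m1, beside E(spl)m2-BFM and upstream of m3, compared with 24.9% of all IDR windows. The count depended on the window: with 50 bp on each side it was 2 of 11, against 13.3% of all IDR regions, and with 200 bp 6 of 11, against 44.3%, both nearer to the share over the list. Over the whole complex the core was not frequent, at 0.819 times its density over the 6 arms. The part of base composition in this count was not tested.

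Su(H) words, the DNA sites through which Notch acts, were concentrated in the complex. There were 38 words in the complex, 7.27 per 10 kb against 1.06 over the 6 arms, a ratio of 6.87. Of the 11 summit windows 1 held a word (the distal m3 region), and 1.78% of all IDR windows did, so a count this small shows neither excess nor lack at the summits. Counting the flanks there were 40 words, of which 27 lay within 1 kb of a start site. Within 500 bp of an IDR summit lay 7, and within 100 bp 1. These windows cover unlike parts of the locus, and their shares of it were not computed. The counts therefore do not show whether words lay nearer to starts than to summits. From the summits, the nearest word was 62 to 3824 bp away, with a median of 625 bp. In the 300 bases from 250 bp upstream to 50 bp downstream of the start, m4, m5 and m8 held a word (3 of 10), against 3.18% of all promoters, and m8 alone held 2.

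Facing pairs of these words were more concentrated still. The 6 arms held 19 such pairs in all, and 7 of them (36.8%) lay in the complex, which makes up 0.0391% of the arms' length. This pattern was searched for after the positions of the words had been seen. The words of 6 of the 8 pairs found with the flanks included were 17 bases apart, those of the m5 pair 22 and those of a pair in CG43116 15. The centres lay 278 bp upstream of mγ, 1056 bp upstream of m3, 295 bp upstream of m4, 880 bp upstream of m5, 653 bp upstream of m7 and 208 bp upstream of m8, and a further pair lay 2778 bp downstream of the start of mγ.

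Members with a pair were not always members with a Sox100B-GFP region. The pairs of m7 and m3 lay 269 and 359 bp from the nearest IDR summit, those of m8 and mγ 1555 and 2288 bp, and those of m4 and m5 3470 and 6039 bp. No pair lay within 100 bp of a summit, and with 8 pairs in all this shows neither excess nor lack at the summits. Each pair was counted here only for the gene with the nearest start site. Of the 6 members with such a pair upstream, m3, m7 and m8 had an IDR summit in their windows. By the same rule 29.9% of all genes had one. Both summits of m8 lay past its end, at gro. The other members with an upstream pair, mγ, m4 and m5, had no IDR summit. On this count mδ, mα and gro had a summit without an upstream pair. By distance alone, the pair in CG43116 also lay within 2 kb upstream of mδ, 988 bp from the summit there. The m8 pair likewise lay within 2 kb upstream of gro. By distance, mα was then the only member with a summit and no pair within 2 kb upstream. The members are few and adjacent, and a link between pairs and summits was not tested.

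The counts of other words at the summits were low and near the shares over all IDR windows, from which 11 windows cannot be told apart. The N box CACNAG, to which the bHLH repressors of the complex bind, was in 1 of the 11 windows, upstream of mα, against 16.0% of all IDR windows, and in 4 of the 10 member promoters against 29.7% of all promoters. GAGAG, the site of the GAGA factor, was in 1 window (upstream of m3) against 19.2%, and in 6 member promoters against 29.7%. A GATA site (AGATAA or TGATAA) was in 3 windows against 33.7%. The E boxes CAGCTG and CAGGTG and the word TATCGATA were in none of the 11, and in 5.98%, 3.82% and 1.79% of all IDR windows. All words were searched on both strands. CGTGAGAA and its variants share no full word with the others, and a match is a description of the letters only.

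Genes that act with the complex were marked to different degrees by the same rule. Of 21 Notch pathway genes, 12 had an IDR summit, against 29.9% of all genes. At least 2 summits were found at 10 of the 12, a count for which no share over all genes was computed. The pathway genes are longer than the members, with a median of 6978 bp, and a longer gene can hold more summits by position alone. No share over genes of their length was computed. The strongest were at numb, which lowers Notch activity in one daughter cell (rank 138), mam, the coactivator that joins Su(H) (208), N, the receptor gene (385), aph-1, a γ-secretase subunit (401), neur, the ligase that the Bearded proteins inhibit (423), and fng, a glycosyltransferase that modifies Notch (1038). Each of these lay below the m3 region of the complex, and N, aph-1, neur and fng lay below the m7 region as well, in the IDR ranks.

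Relatives and targets of the members outside the complex gave counts too small to set apart from the background. Of 5 hairy and E(spl) relatives, 2 had an IDR summit, cwo (rank 1366) and Sidpn (rank 2989), against 29.9% of all genes. None of 4 Bearded-family genes elsewhere and none of the 4 achaete-scute genes had one, against 19.1% of genes as short as the 9 short members. That share is not matched to all of them in length. Brd (532 bp) and BobA (627 bp) are shorter than those members, and sc (1438 bp) and ase (2430 bp) are longer. The Bearded complex on 3L, 34.5 kb with flanks, and the achaete-scute complex on X, 97.1 kb, each held 1 IDR summit. This was 0.290 and 0.103 per 10 kb, against 0.424 over the 6 arms and 1.95 in the Enhancer of split complex. These lists are small, and no test was made on them.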

How the data were processed

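Binding of Sox100B-GFP was measured by ChIP-seq in 3 replicates of 1 group, so there is no test between conditions and all values are descriptions. The authors deposited narrowPeak lists on dm6. Per the deposited file descriptions, each replicate list and the pooled list hold peaks with background, made as input for IDR from the sample's alignments and 1 further file shared by all samples. The aligner, the caller and the threshold for IDR were not given in the sources used here. Per the file columns, the signal deposited by the authors is a score whose scale is not stated, the −log10 q-value was deposited per region, and the deposited summit offset, in bp from the region's start, gave the summit. Read depth is unknown, so no interval that needs it is given.

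No region ran past the end of its arm in the release 6 sequence. Genes were those of Ensembl release 115, and a start site is that of any annotated transcript of a protein-coding gene. 3 list symbols and E(spl)m1 were matched to current symbols through RefSeq synonyms, and BobB and BobC were not analysed here. Windows of 100 bp on each side of a summit were searched for 8 motifs. Assignment of summits was tested on simulated data. Named genes are the 10 members, the other genes annotated between them, the genes nearest to the IDR regions of the complex, and at most 6 genes per list, the strongest first. The members and lists were chosen with earlier results of these data known. Alternatives were other flanks, overlaps, list lengths, start sites, ranks and motif windows, and leaving out each replicate. Software was matplotlib 3.10.9, SciPy 1.17.1, NumPy 2.4.6 and Python 3.11.15.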

Additional observations from a re-analysis of the deposited data

How the results depend on the processing

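Of 28 alternative values, 21 stayed within the range set for them and 7 moved. For a count this range was a factor of 1.5 either way from the main value, so 9 and 4 members against 6 both counted as staying. Members with an IDR summit numbered 6 with a flank of 1 kb (24.8% of all genes), by any overlap (30.8%), among the 2841 strongest IDR regions (20.8%) and without replicate 1, 2 or 3 (25.8%, 25.2% and 25.4%), 9 with a flank of 5 kb (42.0%), 4 when a summit counted only for the gene with the nearest start site (21.5%), and 1 with the gene body alone (12.5%). The number of IDR regions at the complex was 11 with flanks of 1 and 5 kb and without each replicate, and 7 among the 2841 strongest regions, which by construction are fewer. The regions found in the top lists of all replicates numbered 7 when 50% of each region had to be covered and 7 when the top list was cut to 2841 regions, and 11 without each replicate in turn. The counts without a replicate are among the 21 that stayed, but they could not fall. All 11 regions were already overlapped by the top lists of all 3 replicates, so these counts say nothing about stability. The median pooled rank was 637 by signal and 1337 by −log10 q-value, where 2673 regions tie at the highest value. With 50 bp on each side of the summit, 0 of the 11 windows held a Su(H) word and 2 a Sox core (0.739% and 13.3% of all IDR regions), against 1 and 5 with 100 bp (1.78% and 24.9%) and 1 and 6 with 200 bp (3.87% and 44.3%). The pairs of Su(H) words and the interval 250 to 600 bp upstream were chosen after seeing the data. No paired analysis was possible because there is 1 group. Read depth is unknown, so a weak rank does not show that binding is absent.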
